A study of Mus musculus with 14 samples.

Results

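The 41 genes described here encode proteins of mitosis: Cdk1 and its cyclins, the mitotic kinases and spindle checkpoint, the kinetochore, the spindle, the cytokinesis machinery and the condensed chromosome. They were taken as a named list, and each symbol was matched to 1 Ensembl gene among the 47729 genes counted, so all 41 were found. RNA had been sequenced from 14 samples of 200 to 500 sorted cells each, released with collagenase from the knee joints of C57BL6 mice aged 16 weeks. All samples were sorted as live cells positive for CD51 (integrin alpha V) and negative for the erythroid marker TER119, the endothelial marker CD31 and the leukocyte marker CD45. The libraries carry the labels' sample numbers. Libraries 1 to 4 were CD200+ CD105- cells of non-immunized mice, which received phosphate buffered saline at every injection. Libraries 5 to 9 were CD200+ CD105- cells sorted in the same way from mice given antigen-induced arthritis, and libraries 10 to 14 were CD200- CD105+ cells from arthritic mice. Arthritis had been induced by immunization with methylated bovine serum albumin in complete Freund's adjuvant followed by injection of the same protein into the joint, and all joints were taken on day 10 after the joint injection. The CD105+ samples analysed here all came from arthritic mice. Whether different animals gave the samples of a group is not stated, so p-values measure the spread between these samples, which may in part be technical.

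A cell enters mitosis when Cdk1 bound to cyclin B is activated. Chromosomes condense, attach through their kinetochores to spindle microtubules, and are held by the spindle checkpoint until all are attached, after which the anaphase-promoting complex with Cdc20 triggers their separation and the cell divides at the cleavage furrow. Most of these genes are transcribed late in the cell cycle and their RNA is low in cells that are not dividing, which is why several of them, such as Mki67, are used as proliferation markers.

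Counts per library ran from 12177437 to 40331071 and counts on genes from 2919666 to 18553803, the remainder being synthetic spike-in RNA. Spike-ins took over 80% of the counts in 3 libraries, 85.35% in library 2, 87.44% in library 5 and 91.98% in library 6. Levels are given as CPM, the read count of a gene scaled to a fixed total of gene counts per library and adjusted by the trimmed mean of M values (TMM). Before that adjustment, 3 counts in 1 library corresponded to between 0.162 and 1.03 CPM. The RNA of the CD200 marker followed the sort, at 318 to 796 CPM in the 9 CD200+ libraries and at 0 in 4 of the 5 CD105+ libraries, with 11.5 CPM in library 12. The RNA of Eng, which encodes CD105, did not separate the sorted groups: it lay at 0 to 11.1 CPM in the CD105+ libraries, 0 to 1.35 CPM in the arthritic CD200+ libraries and 0.315 to 12.2 CPM in the non-immunized ones. Itgav, which encodes CD51, was at 0.888 to 24.0 CPM in the CD105+ libraries and 1.82 to 139.9 CPM in the arthritic CD200+ libraries. Erythroid, osteoblast, muscle and mural markers moved with the sort. The summed level of 16 erythroid genes was 28850 to 248500 CPM in the CD105+ libraries, where all 16 were counted in every library, against 53.4 to 10390 CPM in the arthritic CD200+ libraries and 1180 to 10190 CPM in the non-immunized ones. The erythroid transcription factor gene Gata1 was at 159 to 444 CPM in the CD105+ libraries and at 0 in all 9 CD200+ libraries. The summed level of 9 osteoblast genes went the other way, at 88.1 to 1470 CPM in the CD105+ libraries and 25090 to 127900 CPM in the CD200+ libraries, and Runx2, which specifies that lineage, was at 0 in every CD105+ library. Summed muscle markers were at 0.444 to 11.2 CPM in CD105+ and 238 to 1352 CPM in CD200+ libraries. Summed mural markers were at 3.77 to 279.5 CPM in CD105+ and 312.9 to 1497 CPM in CD200+ libraries. Summed macrophage markers did not follow the sort. They reached 5769 CPM in CD105+ library 11 alone and were at 0 to 16.8 CPM in the other CD105+ libraries. In arthritic CD200+ libraries they were at 0 to 62.4 CPM and in non-immunized ones at 0 to 284 CPM. Neutrophil markers summed to 7016, 2132 and 1051 CPM in libraries 3, 4 and 11 and to at most 204.1 CPM in the others. B and plasma cell markers summed to 6755 CPM in library 3 and to at most 90.1 CPM in the others. Chondrocyte markers summed to 5600 CPM in CD105+ library 12 and to 16.9 to 24.0 CPM in the other CD105+ libraries. In arthritic CD200+ libraries they summed to 155.6 to 5039 CPM and in non-immunized ones to 1209 to 19960 CPM. The part of these cell type differences in the results on mitosis genes was not tested. In such bulk samples, more dividing cells and more RNA per dividing cell cannot be told apart.

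The mitosis genes were higher in CD105+ than in CD200+ cells of arthritic joints. Their summed level was 12440, 7233, 6538, 8468 and 9052 CPM in CD105+ libraries 10 to 14. In arthritic CD200+ libraries 5 to 9 it was 419, 53.4, 1182, 1202 and 884 CPM. In non-immunized CD200+ libraries 1 to 4 it was 481, 115, 216 and 115 CPM. The lowest CD105+ library was above the highest CD200+ library of either kind. Between the CD200+ groups the values overlapped: libraries 7, 8 and 9 were above every non-immunized library, library 5 lay below library 1, and library 6 was the lowest of all 14.

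**Figure D1:**
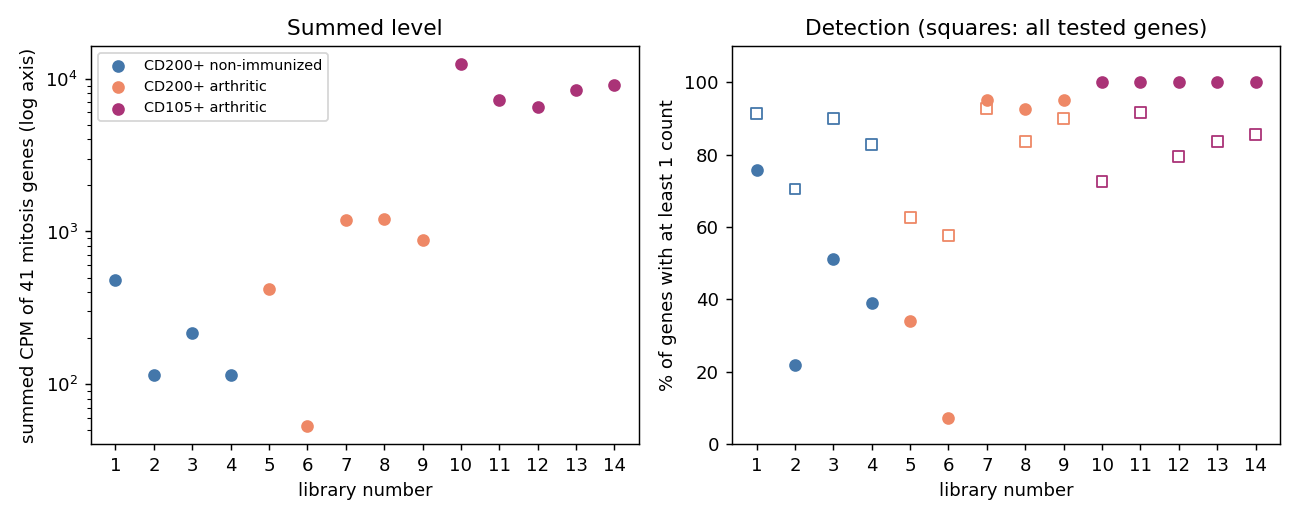
The left panel plots, for each of the 14 libraries, the summed CPM of the 41 mitosis genes on a log axis, and the right panel the percentage of those genes (filled circles) and of the 15015 tested genes (open squares) with at least 1 count. The CD105+ libraries lie between 6538 and 12440 CPM with all 41 genes counted, while libraries 5 and 6 hold 14 and 3 of the 41 genes.

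The number of mitosis genes detected was also highest in CD105+ cells. Every one of the 41 genes had a count in each of the 5 CD105+ libraries, although only 72.6 to 91.6% of the tested genes had one there. Arthritic CD200+ libraries 7, 8 and 9 held 39, 38 and 39 of the 41 genes, whereas libraries 5 and 6 held 14 and 3, with 62.6% and 57.7% of tested genes counted. Non-immunized libraries 1 to 4 held 31, 9, 21 and 16 of the 41 genes, at 91.3%, 70.5%, 90.0% and 82.8% of tested genes. The mitosis genes were thus counted less completely than the tested genes as a whole in libraries 1 to 6, and more completely in libraries 7 to 14.

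The first comparison asked how CD105+ and CD200+ cells of arthritic joints differ. All 41 genes passed the filter on low counts, and 6 were higher in CD105+ cells at an adjusted p under 0.05 (edgeR's quasi-likelihood test, Benjamini-Hochberg over all 15015 tested genes), against a background of 4.79% of tested genes called higher and 6.48% called lower. The 6 were Smc2, Ttk, Cenpa, Aurka, Nusap1 and Spc24, and no mitosis gene was called lower. All 41 log2 differences were above 0, where 48.8% of tested genes were, and 22 of the 41 had an unadjusted p under 0.05 in that direction, where 11.3% of tested genes did. For 34 of the 41 the lowest CD105+ library was above the highest arthritic CD200+ library, which held for 10.4% of tested genes, and for 0 the reverse held (6.33% of tested genes). Their median log2 difference was 3.58 (range 0.54 to 6.30), beside -0.05 over all tested genes. The count of called genes moved with the libraries and the tool. It was between 1 and 3 without any 1 of libraries 7 to 14, where 3.22 to 4.03% of tested genes were called higher. Without libraries 2, 5 and 6 it was 10 (5.12% of tested genes higher). It was 14 with DESeq2 (8.14%) and 31 with limma voom and sample quality weights (13.7%). With library sizes taken from the spike-ins the median over all tested genes moved to 1.22 and that of the mitosis genes to 4.44. In that fit 1 mitosis gene, Aurka, was called (2.6% of tested genes higher). Under 24 alternatives to this fit, Smc2 was called in 23, Ttk in 21, Cenpa in 17, Aurka and Nusap1 in 13 each and Spc24 in 10. Leaving out library 13 or 14 ended the call of Ttk (adjusted p = 0.0555 and 0.0512), and leaving out library 5, 8, 9, 10, 13 or 14 that of Cenpa (0.0506 to 0.067). Nusap1 lost its call without library 3 or any 1 of libraries 7 to 14 (0.0518 to 0.0926), and Spc24 without library 3, 4, 6 or any 1 of libraries 7 to 14 (0.0557 to 0.0905). Aurka lost its call without library 1, 6 or any 1 of libraries 7 to 14 (0.0535 to 0.0914).

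**Figure D2:**
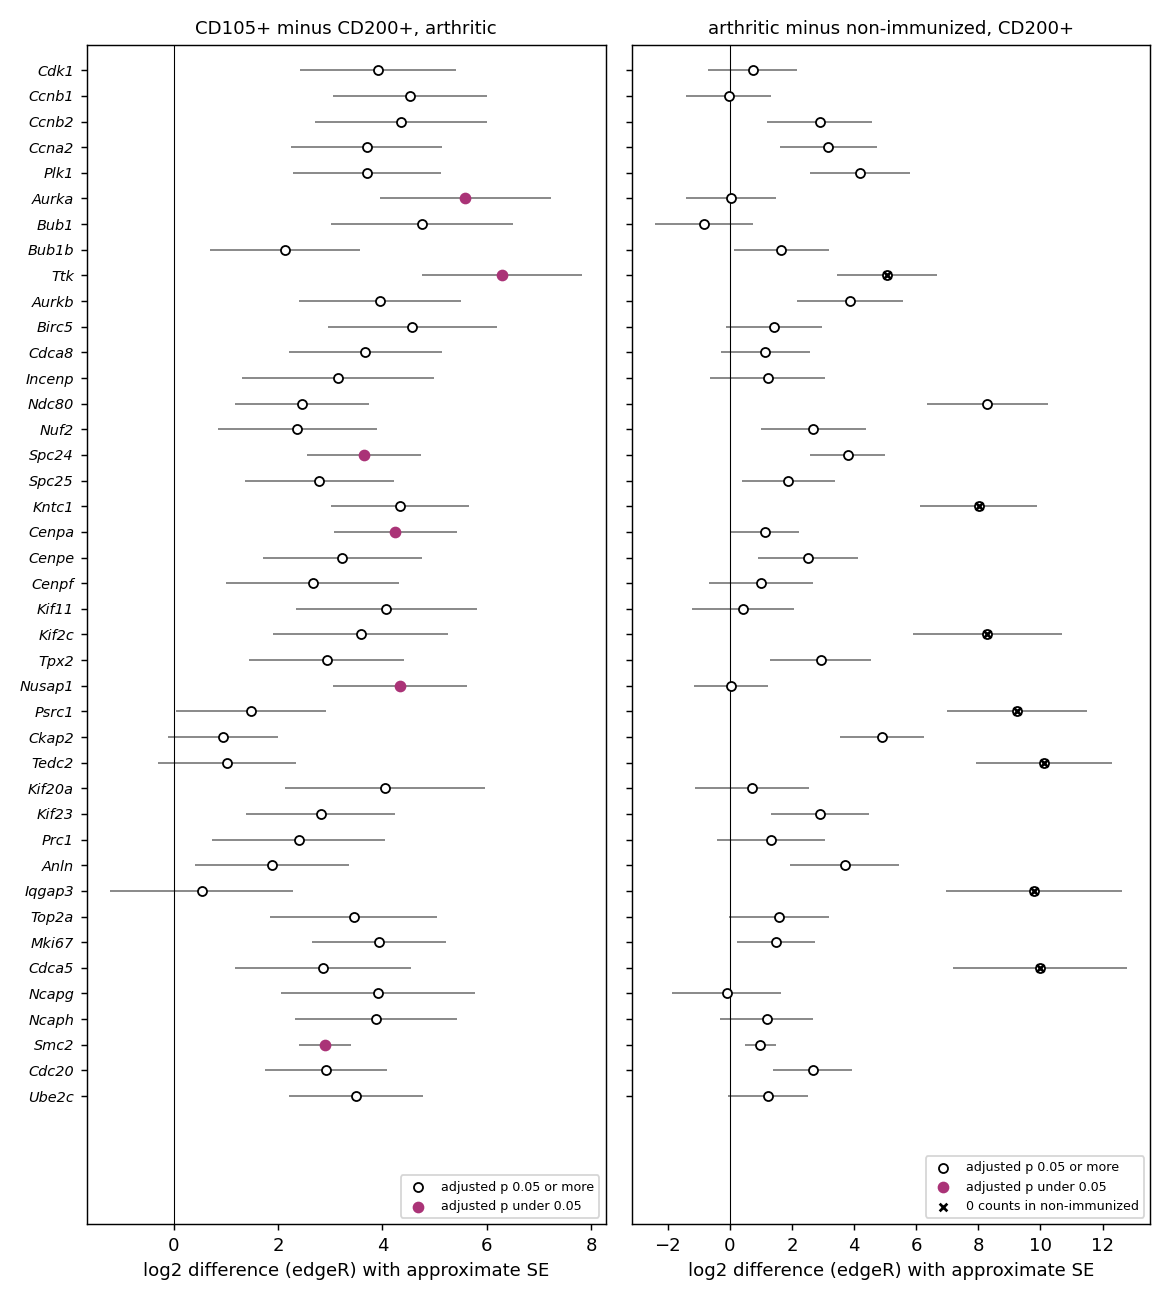
Each point is the fitted log2 difference of 1 mitosis gene with its approximate standard error (line), for CD105+ minus CD200+ cells of arthritic joints on the left and arthritic minus non-immunized CD200+ cells on the right. Filled points have an adjusted p under 0.05 (6 genes on the left, 0 on the right), and crosses mark the 7 genes with no count in any non-immunized library, whose fitted values depend on the prior count.

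The second comparison asked what arthritis changed in CD200+ cells. No mitosis gene passed the threshold with edgeR, as was the case for all tested genes (0 called in each direction). At an unadjusted p under 0.05, 12 of the 41 were higher and 0 lower, where 3.22% of tested genes were higher and 2.88% lower. In 38 of the 41 the log2 difference was above 0 (44.9% of tested genes), with a median of 1.88 beside -0.10 over all tested genes. This median depended on library 1 and on the tool: without library 1 it was 3.91, with 22 genes higher at an unadjusted p under 0.05, and limma voom gave 4.09. No mitosis gene had non-overlapping groups, against 1.11% of tested genes higher and 1.18% lower, and libraries 5 and 6 held counts for only 14 and 3 of them. DESeq2 called 8 of the 41 higher and 0 lower (0.717% and 1.18% of tested genes): Ndc80, Kntc1, Kif2c, Psrc1, Ckap2, Tedc2, Iqgap3 and Cdca5. Of these 8, 6 had no count in any non-immunized library, and limma voom called 0 (0.02% of tested genes higher, 0.00666% lower). Without libraries 2, 5 and 6, edgeR still called 0, with 19 of 41 higher at an unadjusted p under 0.05 and a smallest adjusted p of 0.103.

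In the third comparison, of CD105+ cells from arthritic joints with CD200+ cells from non-immunized joints, 18 of the 41 genes were called higher and 0 lower by edgeR, against 5.57% of tested genes called higher and 7.63% lower. All 41 had non-overlapping groups (12.5% of tested genes higher), all 41 log2 differences were above 0 (45.5% of tested genes), and the median log2 difference was 5.59 beside -0.24 over all tested genes. DESeq2 called 31 (8.03% of tested genes higher) and limma voom 40 (14.3%). Without libraries 2, 5 and 6 the count was 30 (8.12% of tested genes higher), and without library 5 alone it was 28 (7.44%). Library 5 belongs to neither group and enters only through the shared fit. Plk1, Ttk, Ndc80, Spc24, Kntc1, Kif2c, Psrc1, Tedc2, Cdca5 and Smc2 were called under all 24 alternatives, whereas Ccnb2 was called in 15 and Iqgap3 in 12. Of the genes named here, Ttk, Kntc1, Kif2c, Psrc1, Tedc2, Cdca5 and Iqgap3 had no count in any non-immunized library. Plk1 and Ndc80 were each counted in only 1 of those libraries. The size of these differences thus rests on a lower group at or near 0. Without library 2 the calls of Aurkb, Ccna2, Ccnb2, Cdc20 and Iqgap3 ended, without library 3 those of Aurkb, Ccnb2, Iqgap3 and Mki67, and without library 4 those of Aurkb, Ccnb2, Cenpa, Iqgap3 and Mki67. Leaving out library 1 ended the calls of Cenpa and Iqgap3, library 10 those of Ccnb2 and Iqgap3, library 13 or 14 those of Ccnb2, Iqgap3 and Mki67, and library 7, 11 or 12 that of Iqgap3. Sort and arthritis change together in this comparison, so their parts cannot be told apart. Each pair of the 3 comparisons shares a group of libraries, so their values are given side by side and are not independent of each other.

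**Figure D3:**
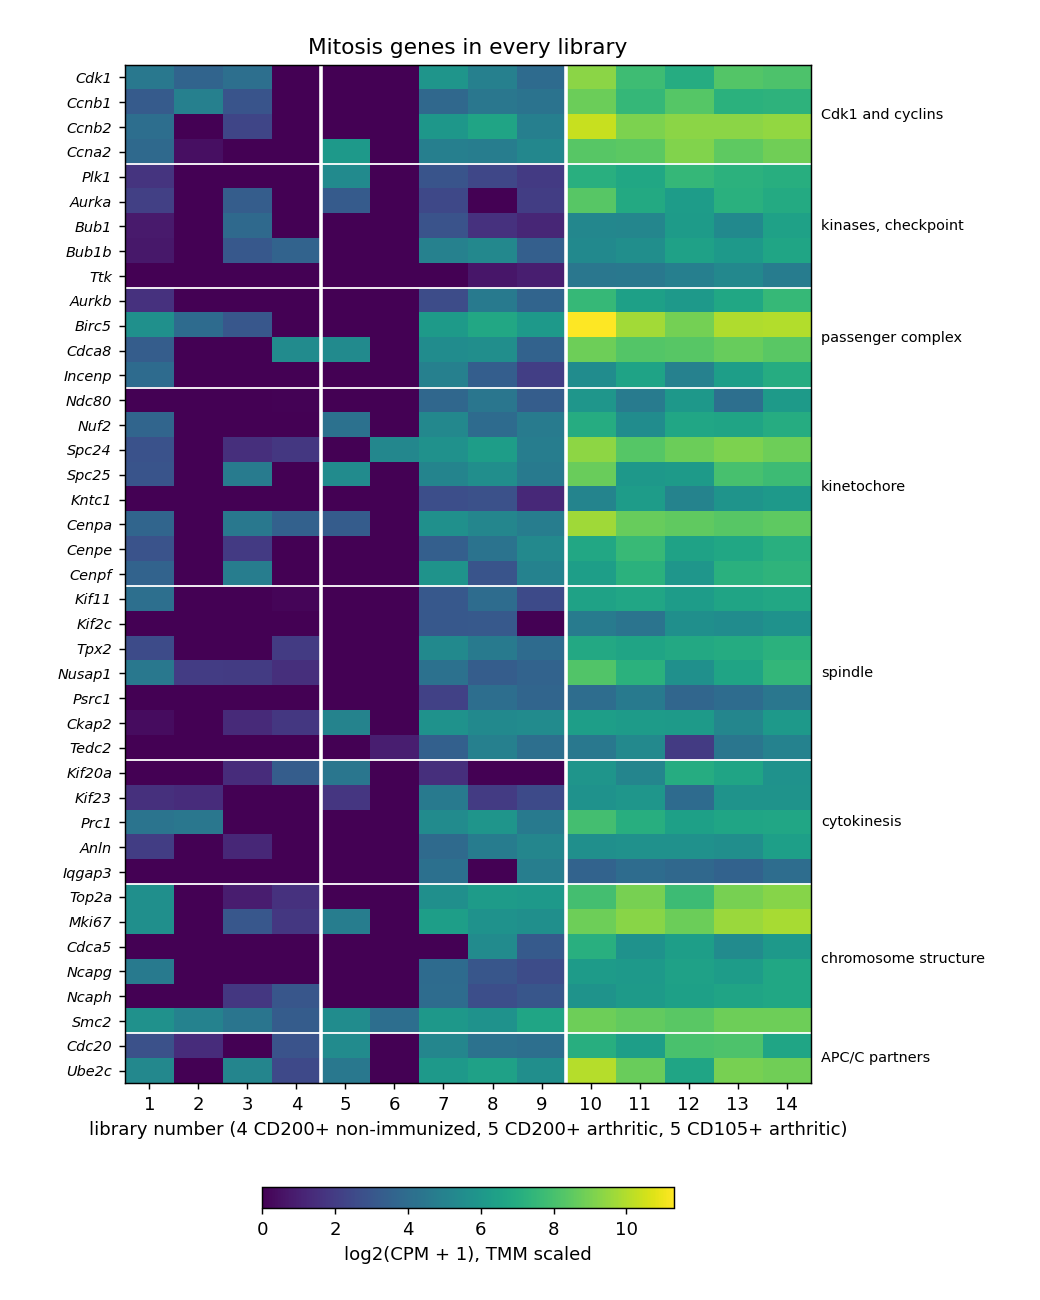
Colour gives log2(CPM + 1) of each of the 41 mitosis genes (vertical axis, grouped by role) in each of the 14 libraries (horizontal axis), with white lines between the sample groups and between roles. The 5 CD105+ columns are filled for all 41 genes, library 6 holds 3 of them, and Ccnb2 and Birc5 in library 10 reach 1304 and 2523 CPM.

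Since the genes differed in the same direction, the bases before their transcription starts were read from RefSeq (build GRCm38.p6), 250 bases upstream of each annotated start. A window was found for 35 of the 41 genes, 37 windows in all because Prc1 and Psrc1 have a pair each. Both strands were searched for the letters of the cell cycle genes homology region, an element known from promoters of late cell cycle genes (TTTGAA, its reverse complement TTCAAA, and TTCGAA), and for the CCAAT box (CCAAT, or ATTGG on the other strand), the site of the factor NF-Y. The first kind was in 18 of the 37 windows (48.6%) and in 17.1% of all 32851 RefSeq windows of the same length. CCAAT or ATTGG was in 27 of 37 (73.0%) against 33.8% of all windows, and occurred at 2 or more places in 16 of 37 (43.2%) against 10.1%. Both kinds were together in 14 of 37 (37.8%) against 6.02%, and neither was in 6 (16.2%) against 55.0%. Shown first are the windows of 4 of the 6 genes called higher in CD105+ than in CD200+ cells of arthritic joints, the comparison meant by called here. Then come those of Ccnb2, the gene with the highest level per kilobase, and of Top2a, whose window holds the most matches of both kinds together. The last is that of Ckap2, which had one of the smallest differences. They lie at chr9:83834439-83834688 (plus strand) for Ttk, chr2:172370571-172370820 (minus strand) for Aurka, chr4:52438971-52439220 (plus strand) for Smc2, chr2:119618048-119618297 (plus strand) for Nusap1, chr9:70421555-70421804 (minus strand) for Ccnb2, chr11:99024190-99024439 (minus strand) for Top2a and chr8:22185820-22186069 (minus strand) for Ckap2. Capitals mark the matches, and each is written 5′ to 3′ toward the gene.
Ttk: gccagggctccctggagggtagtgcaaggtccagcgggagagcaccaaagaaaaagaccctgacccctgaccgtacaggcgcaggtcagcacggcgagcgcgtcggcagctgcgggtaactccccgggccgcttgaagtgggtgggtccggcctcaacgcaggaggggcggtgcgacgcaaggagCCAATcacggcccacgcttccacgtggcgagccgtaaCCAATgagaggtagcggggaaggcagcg
Aurka: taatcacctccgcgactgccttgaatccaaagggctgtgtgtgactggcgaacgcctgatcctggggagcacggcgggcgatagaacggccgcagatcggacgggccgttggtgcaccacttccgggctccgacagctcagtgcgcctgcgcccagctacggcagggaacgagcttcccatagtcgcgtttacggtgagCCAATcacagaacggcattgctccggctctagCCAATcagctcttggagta
Smc2: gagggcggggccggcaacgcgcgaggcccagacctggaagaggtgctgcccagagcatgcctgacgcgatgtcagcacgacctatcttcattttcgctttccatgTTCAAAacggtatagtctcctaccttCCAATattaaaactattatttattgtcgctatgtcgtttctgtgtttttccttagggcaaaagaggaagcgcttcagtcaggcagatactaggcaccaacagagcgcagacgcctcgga
Nusap1: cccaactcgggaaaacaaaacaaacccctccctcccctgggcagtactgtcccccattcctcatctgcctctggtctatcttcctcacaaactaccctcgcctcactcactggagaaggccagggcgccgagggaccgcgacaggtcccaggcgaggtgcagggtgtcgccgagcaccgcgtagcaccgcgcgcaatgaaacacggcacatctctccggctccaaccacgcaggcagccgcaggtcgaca
Ccnb2: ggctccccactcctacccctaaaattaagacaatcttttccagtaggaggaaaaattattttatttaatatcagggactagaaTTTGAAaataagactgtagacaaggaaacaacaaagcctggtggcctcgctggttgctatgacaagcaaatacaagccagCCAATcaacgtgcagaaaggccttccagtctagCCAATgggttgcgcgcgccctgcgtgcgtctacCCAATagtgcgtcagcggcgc
Top2a: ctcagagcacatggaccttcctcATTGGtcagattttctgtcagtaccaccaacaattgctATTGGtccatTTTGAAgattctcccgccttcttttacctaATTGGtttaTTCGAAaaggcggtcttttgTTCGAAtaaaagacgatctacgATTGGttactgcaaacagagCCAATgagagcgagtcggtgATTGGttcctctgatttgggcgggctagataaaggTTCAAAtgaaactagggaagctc
Ckap2: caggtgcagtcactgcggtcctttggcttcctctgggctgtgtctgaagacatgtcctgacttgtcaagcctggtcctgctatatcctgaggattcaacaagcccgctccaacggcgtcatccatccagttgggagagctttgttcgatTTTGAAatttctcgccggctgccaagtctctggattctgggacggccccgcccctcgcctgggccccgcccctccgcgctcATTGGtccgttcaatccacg
Ttk and Aurka each hold 2 matches of the CCAAT kind and none of the other, Smc2 holds 1 of each kind, and Nusap1 holds neither although it was called. The window of Cenpa, also called, holds 2 of the CCAAT kind. Ccnb2 holds 3 of the CCAAT kind and 1 of the other, and Top2a 6 and 4. Ckap2 holds 1 of each kind and was not called. These 7 windows were picked in part by call, level or matches, so they cannot show whether matches go with calls. Against non-immunized cells, Ckap2 and Ccnb2 were called. A match is a stretch of letters and not a measured binding site.

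Among Cdk1 and its cyclins, 0 of 4 genes passed the threshold between CD105+ and CD200+ cells of arthritic joints (4.79% of tested genes higher). All 4 had non-overlapping groups (10.4% of tested genes higher), and the class median was 4.14 on the log2 scale. Against the non-immunized libraries 2 of 4 were called, Ccnb2 and Ccna2 (5.57% of tested genes higher). Ccnb2, a B-type cyclin that activates Cdk1, stood at 1304, 530, 646, 647 and 709 CPM in libraries 10 to 14. In arthritic CD200+ libraries 5 to 9 it was at 0, 0, 61.9, 96.1 and 28.3 CPM, and in libraries 1 to 4 at 15.7, 0, 4.16 and 0 CPM. The lowest CD105+ library was 5.51 times the highest arthritic CD200+ library, yet the difference of 4.36 (SE 1.64, adjusted p = 0.102) did not pass the threshold. Against the non-immunized libraries it was called, at 7.25 (SE 2.09, adjusted p = 0.0358).

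Ccnb1, the other B-type cyclin, was at 436, 184, 321, 147 and 157 CPM in the CD105+ libraries. It was at 0, 0, 13.1, 21.6 and 18.7 CPM in arthritic and at 8.45, 29.4, 6.68 and 0 CPM in non-immunized CD200+ libraries. The CD105+ libraries lay above all others, while the CD200+ groups overlapped. Its difference was 4.53 (SE 1.48, adjusted p = 0.0628) between the sorted cells of arthritic joints and -0.04 (SE 1.36) between arthritic and non-immunized CD200+ cells. Ccna2, the cyclin A that acts from S phase into mitosis, was at 327, 352, 573, 365 and 463 CPM in the CD105+ libraries and at 68.3, 0, 28.3, 27.1 and 36.7 CPM in arthritic CD200+ libraries, where the highest value came from library 5. In the non-immunized libraries it was at 13.7, 0.372, 0 and 0 CPM. The sorted groups did not overlap, at 3.70 (SE 1.45, adjusted p = 0.115), and the difference from non-immunized cells was called at 6.87 (SE 1.87, adjusted p = 0.0282). Cdk1 itself, the kinase these cyclins activate, ranged from 125 to 638 CPM in CD105+ cells and from 0 to 59.3 CPM in arthritic CD200+ cells, with a difference of 3.92 (adjusted p = 0.106).

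Of the 5 mitotic kinases and checkpoint genes, 2 were called higher in CD105+ than in CD200+ cells of arthritic joints. The share of tested genes called higher was 4.79%. All 5 had non-overlapping groups (10.4% of tested genes higher). Ttk encodes the kinase that starts spindle checkpoint signalling at unattached kinetochores (ENSMUSG00000038379, chr9:83834689-83872389, GRCm38). It was counted in every CD105+ library, at 21.3, 22.3, 28.0, 37.4 and 26.1 CPM, and in only 2 of the 9 CD200+ libraries, at 0.612 CPM in library 8 and 0.942 CPM in library 9. The lowest CD105+ library was 22.62 times the highest CD200+ library, the widest such gap among the 41 genes. Ttk rose by 6.30 on the log2 scale (SE 1.53, adjusted p = 0.0246). With no count in any non-immunized library, it was at least 503-fold higher in CD105+ cells than a floor of 3 counts over that group, a bound that covers counting error only.

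Aurka, the kinase of the spindle poles (ENSMUSG00000027496, chr2:172356190-172370535), is described in full because it was called, a choice made after its values were seen. It was at 327, 116, 75.5, 144 and 118 CPM in the CD105+ libraries. In arthritic CD200+ libraries it was at 8.46, 0, 4.51, 0 and 3.14 CPM, and in non-immunized ones at 3.36, 0, 9.01 and 0 CPM. The CD105+ values lay apart and the CD200+ groups overlapped. Aurka rose by 5.59 (SE 1.64, adjusted p = 0.0425) between the sorted cells, and its difference between arthritic and non-immunized CD200+ cells was 0.04 (SE 1.45). Plk1, a kinase that acts from mitotic entry to cytokinesis, was at 141, 105, 184, 154 and 133 CPM in the CD105+ libraries and at 41.5, 0, 6.61, 4.35 and 2.83 CPM in arthritic CD200+ libraries. It was counted in 1 non-immunized library, at 2.26 CPM in library 1. Its sorted groups did not overlap, at 3.70 (SE 1.42, adjusted p = 0.107), and without libraries 2, 5 and 6 the difference was called at 5.02 (adjusted p = 0.0358). Against non-immunized cells Plk1 was called at 7.89 (SE 1.92, adjusted p = 0.0165). The checkpoint genes Bub1 and Bub1b ranged from 35.4 to 86.2 and from 39.95 to 98.0 CPM in CD105+ cells, against 0 to 6.46 and 0 to 37.5 CPM in arthritic CD200+ cells, and neither was called (adjusted p = 0.0927 and 0.391).

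In the chromosomal passenger complex Aurkb is the kinase, Birc5 (survivin) and Cdca8 (borealin) target the complex to centromeres and Incenp is the scaffold. Of its 4 genes 0 were called between the sorted cells (4.79% of tested genes higher). All 4 had non-overlapping groups (10.4% of tested genes higher). Birc5 was at 2523, 844, 497, 978 and 1031 CPM in the CD105+ libraries. It was at 0, 0, 70.1, 108 and 66.6 CPM in arthritic and at 50.7, 14.7, 7.31 and 0 CPM in non-immunized CD200+ libraries. Library 10 stood well above the other CD105+ libraries, and all 5 were above every CD200+ library, at a difference of 4.58 (SE 1.63, adjusted p = 0.0857). Aurkb was at 188, 85.5, 66.4, 106 and 190 CPM in the CD105+ libraries, at 0, 0, 5.19, 23.5 and 11.6 CPM in arthritic CD200+ libraries, and at 2.08 CPM in library 1 and 0 in the other non-immunized libraries. Its groups did not overlap between the sorted cells, where the difference of 3.96 (SE 1.55, adjusted p = 0.114) missed the threshold. Aurkb was the 1 gene of this complex called against non-immunized cells (5.57% of tested genes higher), at 7.83 (SE 2.07, adjusted p = 0.0244). Cdca8 ranged from 306 to 450 CPM and Incenp from 30.6 to 129 CPM in CD105+ cells, against 0 to 46.7 and 0 to 29.4 CPM in arthritic CD200+ cells.

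Of the 8 centromere and kinetochore genes, 2 were called higher in CD105+ than in CD200+ cells of arthritic joints. The share of tested genes called higher was 4.79%. Non-overlapping groups were found for 7 of the 8 (10.4% of tested genes higher), and the class median was 3.01. Cenpa, the histone H3 variant that marks the centromere (ENSMUSG00000029177, chr5:30666777-30674830), was at 818, 409, 375, 329 and 366 CPM in the CD105+ libraries. In arthritic CD200+ libraries it was at 8.66, 0, 49.8, 35.4 and 26.4 CPM, and in non-immunized ones at 11.7, 0, 22.0 and 10.5 CPM. Only library 10 stood apart among the CD105+ libraries, and the lowest of them was 6.61 times the highest arthritic CD200+ library. Cenpa rose by 4.25 (SE 1.17, adjusted p = 0.0332).

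Spc24, Spc25, Ndc80 and Nuf2 form the Ndc80 complex, which binds spindle microtubules. Spc24 (ENSMUSG00000074476, chr9:21755442-21760303) was at 659, 317, 439, 537 and 452 CPM in the CD105+ libraries. It was at 0, 36.7, 51.6, 76.2 and 26.8 CPM in arthritic CD200+ libraries, where it was 1 of the 3 mitosis genes counted in library 6, and at 6.31, 0, 1.89 and 2.60 CPM in non-immunized ones. The sorted groups lay apart, and Spc24 rose by 3.65 (SE 1.09, adjusted p = 0.0448). Ndc80 was at 60.4, 24.96, 63.5, 16.4 and 70.9 CPM in the CD105+ libraries and at 0, 0, 12.8, 20.7 and 9.11 CPM in arthritic CD200+ libraries. Those groups overlapped, because CD105+ library 13 lay below arthritic CD200+ library 8, and the difference was 2.46 (SE 1.29, adjusted p = 0.248). In the non-immunized libraries Ndc80 had 1 count in all, in library 4 (0.0579 CPM). The ratio of pooled CPM against that single count was 710.0 (95% interval 127.0 to 28086.8, counting error only) in arthritic CD200+ cells and 2280.8 (409.0 to 90121.2) in CD105+ cells, and the second difference was called by edgeR (adjusted p = 0.00592). Spc25 and Nuf2 were not called between the sorted cells (adjusted p = 0.236 and 0.363), at 65.0 to 415 and 43.8 to 126 CPM in CD105+ cells and 0 to 47.0 and 0 to 38.1 CPM in arthritic CD200+ cells. The 4 subunits thus differed in test result but each had its median CD105+ library above all arthritic CD200+ libraries.

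Kntc1, a part of the complex that brings dynein to kinetochores, was at 32.6 to 76.0 CPM in CD105+ cells and 0 to 5.91 CPM in arthritic CD200+ cells, with a difference of 4.34 (SE 1.33, adjusted p = 0.0585). It had no count in any non-immunized library. Cenpe, a kinetochore motor, and Cenpf, a large kinetochore protein, ranged from 90.3 to 192 and from 60.8 to 164 CPM in CD105+ cells, against 0 to 38.6 and 0 to 55.4 CPM in arthritic CD200+ cells, and were not called (adjusted p = 0.189 and 0.342). Against non-immunized cells 4 of the 8 genes of this class were called (5.57% of tested genes higher): Ndc80, Spc24, Kntc1 and Cenpa.

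Among the 7 spindle genes 1 was called between the sorted cells (4.79% of tested genes higher). Non-overlapping groups were found for 4 (10.4% of tested genes higher), and the class median was 2.93. Nusap1, which bundles and stabilizes spindle microtubules (ENSMUSG00000027306, chr2:119618298-119651244), was at 298, 149, 49.4, 95.7 and 176 CPM in the CD105+ libraries. It was at 0, 0, 17.4, 9.11 and 11.0 CPM in arthritic and at 21.8, 2.98, 2.90 and 1.91 CPM in non-immunized CD200+ libraries. The CD105+ libraries were all higher than the others while both CD200+ groups overlapped, and the highest non-immunized value came from library 1. Nusap1 rose by 4.34 (SE 1.28, adjusted p = 0.0442) between the sorted cells and differed by 0.03 (SE 1.19) between arthritic and non-immunized CD200+ cells. The motor Kif11, which pushes spindle poles apart, was among the steadiest genes of CD105+ cells, at 75.4 to 108 CPM, and was at 0 to 15.02 CPM in arthritic CD200+ cells (4.08, SE 1.73, adjusted p = 0.142). Tpx2, which activates Aurora A on the spindle, was at 96.3 to 146 CPM against 0 to 39.6 CPM (adjusted p = 0.228), and the microtubule depolymerase Kif2c at 19.1 to 53.5 CPM against 0 to 8.02 CPM (adjusted p = 0.199).

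Tedc2, a protein of a tubulin-stabilizing complex at centrioles, showed a different pattern. It had no count in any non-immunized library, was at 0, 0.910, 10.0, 29.6 and 16.3 CPM in arthritic CD200+ libraries, and at 21.8, 39.4, 2.86, 20.9 and 31.5 CPM in CD105+ libraries. The 2 arthritic groups overlapped widely, at a difference of 1.03 (SE 1.32, adjusted p = 0.695). Against the floor of 3 counts over the non-immunized group, Tedc2 was at least 212-fold higher in arthritic CD200+ cells and at least 433-fold higher in CD105+ cells. The first was not called by edgeR (adjusted p = 0.636) and was by DESeq2 (adjusted p = 1.88e-06), and the second was called by edgeR (adjusted p = 0.0104). Psrc1, which regulates spindle microtubule dynamics, was likewise uncounted in non-immunized cells, at 0 to 15.7 CPM in arthritic CD200+ and 12.2 to 23.7 CPM in CD105+ cells. Ckap2, which promotes microtubule assembly at the spindle, was at 0 to 53.7 CPM in arthritic CD200+ cells, 35.8 to 79.5 CPM in CD105+ cells and 0 to 2.55 CPM in non-immunized cells. Both overlapped between the sorted cells (adjusted p = 0.581 and 0.641) and both were called in CD105+ against non-immunized cells (adjusted p = 0.0147 and 0.0169).

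Of the 5 cytokinesis genes 0 were called between the sorted cells (4.79% of tested genes higher) and 0 had an unadjusted p under 0.05 (11.3%). Non-overlapping groups were found for 3 (10.4% of tested genes higher), and the class median was 2.40. Prc1, which bundles the antiparallel microtubules of the midzone, was at 239, 136, 85.7, 99.9 and 103 CPM in the CD105+ libraries. It was at 0, 0, 43.1, 58.9 and 23.6 CPM in arthritic and at 19.2, 21.0, 0 and 0 CPM in non-immunized CD200+ libraries. The sorted groups did not overlap, although the difference of 2.40 (SE 1.66, adjusted p = 0.402) did not pass the threshold. Kif20a, a motor of the midzone, was at 58.6, 34.5, 126, 96.9 and 53.6 CPM in the CD105+ libraries and at 20.5, 0, 1.88, 0 and 0 CPM in arthritic CD200+ libraries, where library 5 alone exceeded 2 CPM. In non-immunized libraries it was at 0, 0, 1.70 and 9.03 CPM, and the sorted cells differed by 4.05 (SE 1.92, adjusted p = 0.195).

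Iqgap3, a scaffold protein linked to the cleavage furrow and to Ras signalling, had the smallest difference of the 41. It was at 11.1, 15.1, 13.0, 10.7 and 15.5 CPM in the CD105+ libraries and at 0, 0, 17.2, 0 and 27.7 CPM in arthritic CD200+ libraries, with no count in non-immunized ones. Its highest values were thus in CD200+ libraries 7 and 9, and its difference between the sorted cells was 0.54 (SE 1.75, adjusted p = 0.892) and -0.14 without libraries 2, 5 and 6. Against the floor for the non-immunized group it was at least 167-fold higher in arthritic CD200+ cells and at least 243-fold higher in CD105+ cells, and the second difference was called (adjusted p = 0.0394). Kif23, the motor of the central spindle, and Anln, an actin-binding protein of the furrow, were at 14.6 to 60.6 and 47.7 to 82.2 CPM in CD105+ cells and at 0 to 23.6 and 0 to 35.9 CPM in arthritic CD200+ cells. Neither was called (adjusted p = 0.230 and 0.472), and Kif23 overlapped through CD105+ library 12.

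Of the 6 chromosome structure genes 1 was called between the sorted cells (4.79% of tested genes higher). Non-overlapping groups were found for 5 (10.4% of tested genes higher), and the class median was 3.66. Smc2, a core ATPase of the condensin complexes (ENSMUSG00000028312, chr4:52439243-52488260), was the only mitosis gene counted in all 14 libraries. It was at 446, 386, 340, 441 and 444 CPM in the CD105+ libraries, at 43.5, 15.8, 64.5, 53.6 and 99.1 CPM in arthritic and at 51.4, 31.6, 20.2 and 8.68 CPM in non-immunized CD200+ libraries. The CD105+ values were the closest together of any of the 41 genes, with a coefficient of variation of 11.5%, and the CD200+ groups overlapped. Smc2 rose by 2.89 (SE 0.50, adjusted p = 0.00303), the smallest adjusted p among the 41, and was called under 23 of 24 alternatives, with an adjusted p of 0.0516 in the remaining one, that with spike-in library sizes. Against non-immunized cells it rose by 3.88 (SE 0.57, adjusted p = 0.000991).

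Ncapg and Ncaph, the condensin I subunits that join Smc2, were at 67.5 to 107 and 55.7 to 104 CPM in CD105+ cells and at 0 to 14.7 and 0 to 14.9 CPM in arthritic CD200+ cells. Their groups did not overlap and neither was called (adjusted p = 0.195 and 0.121). The proliferation marker Mki67 was at 439 to 893 CPM in CD105+ cells, 0 to 80.3 CPM in arthritic and 0 to 49.2 CPM in non-immunized CD200+ cells, with a difference of 3.93 (SE 1.28, adjusted p = 0.0625) between the sorted cells. Top2a, which untangles replicated DNA, was at 214 to 610 CPM against 0 to 72.8 CPM (3.45, SE 1.60, adjusted p = 0.183). Cdca5 (sororin), which protects cohesion between sister chromatids, was at 139, 52.5, 79.3, 42.5 and 66.8 CPM in the CD105+ libraries. In arthritic CD200+ cells it was counted in libraries 8 and 9 only, at 43.4 and 8.23 CPM, and library 8 lay above the lowest CD105+ library. The difference of 2.87 (SE 1.68, adjusted p = 0.321) was not called. In non-immunized cells Cdca5 had no count, and it was at least 192-fold higher in arthritic CD200+ cells and at least 1413-fold higher in CD105+ cells than the floor, the second being called (adjusted p = 0.0193).

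Cdc20, which activates the anaphase-promoting complex, and Ube2c, the ubiquitin-conjugating enzyme that works with it, were not called between the sorted cells. Both had non-overlapping groups (10.4% of tested genes higher). Ube2c was at 1069, 418, 99.7, 500.3 and 462 CPM in the CD105+ libraries, a range of 10.73-fold. It was at 21.7, 0, 68.5, 87.5 and 47.2 CPM in arthritic and 37.5, 0, 34.5 and 4.57 CPM in non-immunized CD200+ libraries. Library 12 was only 1.14 times the highest arthritic CD200+ library, and the difference was 3.498 (SE 1.29, adjusted p = 0.0947). Cdc20 was at 137, 79.2, 264, 279 and 98.7 CPM in CD105+ libraries, at 42.9, 0, 35.8, 18.1 and 16.5 CPM in arthritic and at 6.07, 1.67, 0 and 6.42 CPM in non-immunized CD200+ libraries. It lay higher in all CD105+ libraries, at 2.92 (SE 1.17, adjusted p = 0.121), and was called against non-immunized cells at 5.59 (SE 1.46, adjusted p = 0.0234).

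A group of 7 genes had no count in any non-immunized library: Ttk, Kntc1, Kif2c, Psrc1, Tedc2, Iqgap3 and Cdca5. In arthritic CD200+ cells they were at least 5.78-fold (Ttk) to at least 212-fold (Tedc2) above the floor of 3 counts over the non-immunized group. Library 5 held none of the 7 and library 6 held Tedc2 alone, so their other counts in arthritic CD200+ cells came from libraries 7 to 9. Setting these genes at their bounds left the median log2 difference of the 41 at 1.88 for arthritic against non-immunized CD200+ cells. For CD105+ against non-immunized cells it stayed at 5.59. Fitted values and bounds of these 7 all lie above those medians, so neither median could have moved.

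Levels were compared between genes per kilobase of exon, in CPM per kilobase and as mean ± SD over the 5 CD105+ libraries. Ccnb2 was highest at 501 ± 201 (SD, n = 5), followed by Birc5 at 345 ± 230, Ube2c at 196 ± 135, Spc24 at 187 ± 49.3 and Ccna2 at 102 ± 24.98. Birc5 and Ccnb2 overlapped within their spread, as did Ube2c and Spc24. At the low end stood Ttk at 5.50 ± 1.31, Psrc1 at 5.18 ± 1.41 and Iqgap3 at 1.15 ± 0.194. In arthritic CD200+ cells Ccnb2 was at 24.3 ± 27.2, Ube2c at 17.3 ± 13.5, Spc24 at 14.9 ± 11.0 and Birc5 at 14.4 ± 14.0 CPM per kilobase, values whose spread covers their order.

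The 5 CD105+ libraries differed among themselves by gene. Coefficients of variation ran from 11.5% for Smc2 and 13.4% for Kif11 to 66.6% for Birc5, 68.8% for Ube2c and 71.5% for Spc25. Library 10 held the highest value for 16 of the 41 genes and library 14 for 15, while library 12 held the lowest for 18 and library 11 for 12. Across the 41 genes, Spearman's rho between exon length and a library's deviation from the CD105+ mean (on the log2(CPM + 1) scale) was -0.42 in library 10, 0.40 in library 11, -0.08 in library 12, 0.01 in library 13 and 0.30 in library 14. Over 8025 genes of those libraries the same values were -0.40, 0.22, 0.24, 0.02 and 0.16, so libraries 10 and 11 leaned the same way for genes in general. These are descriptions across genes, which share the library and are not replicates.

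**Figure D4:**
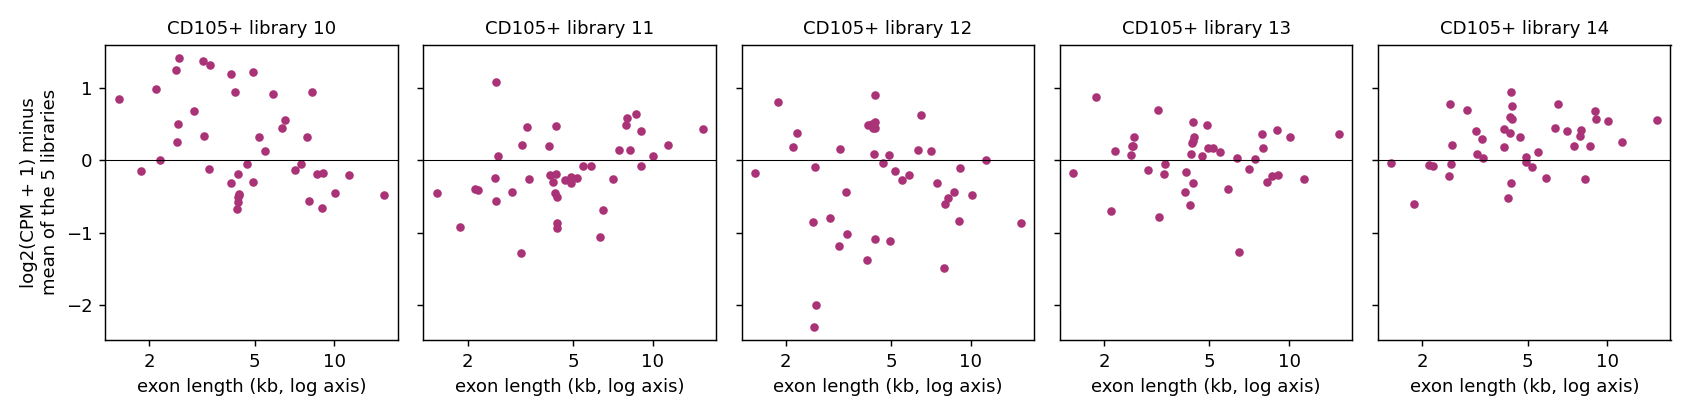
Each panel is 1 CD105+ library and each point 1 of the 41 mitosis genes, with exon length in kilobases (log axis) against the deviation of log2(CPM + 1) from the mean of the 5 CD105+ libraries. In library 10 shorter genes tend to lie higher (rho -0.42), and in library 11 longer ones do (rho 0.40). The highest point of library 11 is nevertheless a short gene, Tedc2, with 2551 bases of exon.

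Other cell cycle genes were read from lists in the same fit, in which 4.79% of tested genes were called higher and 6.48% lower in CD105+ than in CD200+ cells of arthritic joints. Of 63 further genes of mitosis 10 were called higher and 0 lower, with a median log2 difference of 2.92. The smallest p-values were those of Cks1b, a Cdk-binding protein, at 2.25 (SE 0.36, adjusted p = 0.00186), and Zwint, a kinetochore protein, at 2.24 (SE 0.37, adjusted p = 0.00236). Of 18 replication genes 10 were called higher and 0 lower (median 3.87), led by Mcm7 of the replicative helicase at 3.98 (SE 0.48, adjusted p = 0.00021) and the sliding clamp Pcna at 2.72 (SE 0.36, adjusted p = 0.000436). Of 17 transcription factor genes of the mitotic programme 2 were called higher, Mybl2 at 5.43 (SE 1.37, adjusted p = 0.0217) and E2f4 at 4.19 (SE 1.06, adjusted p = 0.0219), with a median of 2.00.

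Core subunits of the anaphase-promoting complex and cohesin genes lay close to the median of all genes, at medians of 0.23 over 14 genes and 0.29 over 11. Anapc5 was the only one of these genes called, at 1.75 (SE 0.43, adjusted p = 0.0192), beside Anapc15 at 3.22 (adjusted p = 0.0837), Smc3 at 1.40 (adjusted p = 0.154) and Smc1a at 0.88 (adjusted p = 0.125). Of 8 genes for G1 cyclins and their kinases 3 were called higher and 1 lower (background 4.79% and 6.48%). Ccne2, cyclin E2, rose by 4.25 (SE 1.02, adjusted p = 0.0174), from 0 to 14.1 CPM in arthritic CD200+ libraries to 95.6 to 354 CPM in CD105+ ones. Ccnd1, cyclin D1, was at 49.3 to 287 CPM in arthritic CD200+ libraries and 0 to 2.35 CPM in CD105+ ones, and fell by 7.92 (SE 1.46, adjusted p = 0.00465). Of 9 tested inhibitors and pocket proteins 2 were called lower in CD105+ cells, the Cdk inhibitors Cdkn1a at -3.42 (SE 0.81, adjusted p = 0.0168) and Cdkn1c at -5.49 (SE 1.56, adjusted p = 0.0374), and 0 higher. DESeq2 called 2 of the 9 lower (13% of tested genes) and 2 higher (8.14%). The 2 higher, named after their values were seen, were Rbl1, a pocket protein, at 0 to 16.1 CPM in arthritic CD200+ and 41.5 to 85.5 CPM in CD105+ libraries, and the inhibitor Cdkn2b, which had no count in arthritic CD200+ libraries and was at 0 to 3.31 CPM in CD105+ ones (edgeR adjusted p = 0.123 and 0.0592). Between arthritic and non-immunized CD200+ cells edgeR called 0 genes in any of these lists.

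Reads of some of the 41 genes could not be assigned with certainty. Exons of Ccna2, Plk1, Cdca8, Nusap1, Tedc2, Kif20a, Prc1, Ncapg, Cdc20 and Ube2c overlap exons of a gene on the opposite strand, by up to 1271 bases for Kif20a with Cdc23, and whether the counting used strand was not stated in the sources used. Ccnb1, Cdc20, Mki67 and Ndc80 share near-identical stretches with transcripts of other genes. These span up to 1294 bases for Ccnb1, but only 410 for Cdc20, 216 for Mki67 and 202 for Ndc80. The most counted of those other genes was Ccnb1-ps, with 633 counts over all libraries. Of the 6 genes called between the sorted cells, Nusap1 is the one affected, by an overlap of 172 bases with Oip5.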

How the data were processed

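RNA of 14 sorted samples was measured with a full-length low-input kit, spike-in RNA and transposase-made libraries, per the labels' protocols. The deposited values are read counts per gene for 47729 genes and 92 spike-ins. Per the submitters' processing notes, cutadapt, HISAT2, StringTie and edgeR were used on GRCm38 (mm10); the counting options are not given in the sources used here. A deposited table of 14322 genes, unnormalized despite its role as a filtered table, held the same counts and served as an alternative set of genes. Spike-ins stayed out of library sizes and tests.

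Symbols, exon lengths and positions came from GENCODE M21, which matched 47310 gene IDs and left 419 unmatched. edgeR 4.0.16 (R 4.3.3) kept 15015 genes (filterByExpr, minimum count 10), scaled by TMM, and fitted all 14 libraries with 3 groups by the robust quasi-likelihood test. Adjusted p-values are Benjamini-Hochberg over all tested genes, two-sided, at 0.05. A standard error is approximate, the log2 difference divided by the square root of its F statistic. DESeq2 1.42.0 left the adjusted p of 3 of the 41 genes undefined in each comparison, and these were not counted as called. Alternatives were limma 3.58.1 voom with sample weights, other scalings, filters and library sets, and leaving out each library. Floors of 3 counts and 95% intervals cover counting error only, since reads carry no molecular identifiers. The scripts were tested on simulated data. The genes and lists were chosen with earlier results of these data known. Values in every library are given for the gene of each role with the highest mean level per kilobase over all libraries or the smallest p in either of the first 2 comparisons, and for the sort marker genes; of each other cell cycle list the 2 genes with the smallest p in the first comparison are named. Near-identical stretches were sought with minimap2 (at least 200 bases at 95% identity).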

Additional observations from a re-analysis of the deposited data

Results flagged for a closer look

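For 19 mitosis genes in 3 groups, 57 sets of values in all, each group was searched for a library whose gap to its nearest neighbour took most of the group's range (Dixon's criterion at 95%). Sets with every value at 0 were skipped, which held for Ttk, Tedc2, Iqgap3 and Cdca5 in the non-immunized libraries. It was met 11 times. Chance meets it in about 1 in 20 sets of normally distributed values, a shape not checked here. Sets with many values at 0 meet it more readily. A set with only 1 value above 0 always meets it, as with Plk1, Aurkb and Ndc80 in the non-immunized libraries (ratio 1.0).

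Library 10 stood above the other CD105+ libraries for Ccnb2 at 1304 CPM (next 709), Birc5 at 2523 CPM (next 1031) and Cenpa at 818 CPM (next 409). Library 1 stood above the other non-immunized libraries for Ccna2 at 13.7 CPM (next 0.372), Nusap1 at 21.8 CPM (next 2.98), Plk1 at 2.26 CPM (next 0) and Aurkb at 2.08 CPM (next 0). Library 4 was the only non-immunized library with a count for Ndc80, at 0.0579 CPM. Library 5 stood above the other arthritic CD200+ libraries for Plk1 at 41.5 CPM (next 6.61) and Kif20a at 20.5 CPM (next 1.88), and library 8 for Cdca5 at 43.4 CPM (next 8.23).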

How the results depend on the processing

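No paired analysis was possible because the sample numbers run from 1 to 14 across the groups and none is shared. All alternatives were listed with earlier results of these data known. Percentages in brackets are the shares of all tested genes called higher under the same setting. In CD105+ against CD200+ cells of arthritic joints, 6 genes were called (4.79%). The count was 1 with spike-in library sizes (2.6%), 3 without a filter (1.99%) and 12 with only those groups in the fit (5.82%). It was 14 with DESeq2 (8.14%), 31 with limma voom (13.7%) and 10 without the libraries over 80% spike-ins (5.12%). It was 1 to 8 when 1 library was left out (3.22 to 5.16%). In CD105+ against non-immunized cells, 18 were called (5.57%). The count was 10 with spike-in library sizes (1.11%), 29 with only those groups (8.15%) and 31 with DESeq2 (8.03%). It was 40 with limma voom (14.3%), 30 without the libraries over 80% spike-ins (8.12%) and 13 to 28 leaving out 1 library (3.72 to 7.44%). In arthritic against non-immunized CD200+ cells, 0 were called (0%), 8 with DESeq2 (0.717%) and 0 to 0 leaving out 1 library (0 to 0.00637%). Counts with RLE factors, the strict filter, the filtered table's genes and no robust shrinkage stayed within 1.5 times of these.

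The sign changed for Iqgap3 between the sorted cells without the libraries over 80% spike-ins (-0.14). In arthritic against non-immunized CD200+ cells, where none of the 41 was called by edgeR, 9 of the 41 changed sign under at least 1 of 24 alternatives. Of the genes given in every library by rule, it changed for Nusap1 with RLE factors (-0.23) and DESeq2 (-0.25), for Ccnb1 with spike-in library sizes (1.29), the filtered table's genes (0.10), limma voom (1.40) and without the libraries over 80% spike-ins (1.81), and for Kif20a with spike-in library sizes (-0.88), limma voom (-0.63) and without those libraries (-2.52). Leaving out 1 library gave -0.45 to 1.09 for Ccnb1, -0.55 to 1.57 for Nusap1 and -2.41 to 2.85 for Kif20a. Over all alternatives the other 6 ranged from -0.16 to 1.46 (Cdk1), -0.69 to 1.41 (Aurka), -1.98 to 2.82 (Bub1), -0.20 to 9.63 (Incenp), -0.37 to 6.60 (Kif11) and -0.92 to 9.00 (Ncapg). The cause was not tested. Depth limits genes counted in few CD200+ libraries, where 3 counts reach 1.03 CPM in library 6 before the TMM adjustment.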

Other observations

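The share of each role in the summed level of the 41 genes was read within each library, after the values had been seen. Cdk1 and its cyclins made up 17.3 to 25.5% of the sum in the CD105+ libraries and 13.8%, 14.5% and 11.1% in arthritic CD200+ libraries 7, 8 and 9. Spindle genes made up 5.1 to 7.0% in the CD105+ libraries and 11.8%, 11.8% and 11.4% in libraries 7, 8 and 9. Cytokinesis genes made up 3.3 to 4.4% in the CD105+ libraries and 8.4%, 7.3% and 10.4% in those 3. Library 5 stood at 16.3%, 7.6% and 5.5% for the same roles, close to the CD105+ ranges, and library 6, with 3 of the 41 genes counted, at 0%, 1.7% and 0%. In non-immunized libraries 1 to 4, Cdk1 and its cyclins made up 12.5%, 35.8%, 12.6% and 0%. There, spindle genes made up 9.1%, 2.6%, 2.1% and 6.5% and cytokinesis genes 5.1%, 19.8%, 1.4% and 7.9%. These values lay on both sides of the CD105+ range for each role. Not every role differed in this way. Chromosome structure genes made up 11.3 to 24.6% in the CD105+ libraries and 18.9%, 19.5% and 26.6% in libraries 7, 8 and 9. Shares of the passenger complex, the kinetochore, and Cdc20 with Ube2c overlapped likewise. Kinase and checkpoint genes did not overlap, at 4.5 to 6.9% in the CD105+ libraries and 4.0%, 3.7% and 2.0% in libraries 7, 8 and 9. The difference in these shares was not tested.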
